A study of Mus musculus with 16 samples.

Results

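The prefrontal cortex (PFC) of mice that carry a point mutation in *Cdh2*, the gene of N-cadherin, was compared with that of wildtype (WT) mice in 8 RNA-seq libraries, 4 Mutant and 4 WT, out of 16 libraries in the series. The members were chosen by tissue alone: these are the libraries whose titles start with PFC, and the genes are the 14814 of 39017 listed genes with a mean normalized value of at least 10 over the 16 libraries. Mutant mice were homozygous for the H150Y substitution, a knock-in made with CRISPR/Cas9 and present in all their cells, while WT mice lacked it. Both groups carry the strain label C57BL/6JRcc and were males aged 13 weeks. After behavioral tests they were perfused with PBS and then formaldehyde, and the PFC was micro-dissected from a frozen hemisphere, so bulk tissue of mixed cell types was measured. The other 8 libraries are of the ventral midbrain (vMB), again 4 Mutant and 4 WT. The knock-in exists as 2 founder lines, and the line behind a library is not stated in the labels. Of the codes in the titles, B1, C2, A2 and D3 stand on 1 library of each tissue with the same genotype, but no source says that a code marks an animal, and all libraries entered the fit as separate samples. In the PFC the letter codes A and D of the titles stand only on Mutant and B, C and E only on WT libraries, and their meaning is not given, so a batch they might mark and the genotype cannot be told apart. Replicates are separate libraries by their labels, and p-values measure the spread between these libraries.

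N-cadherin is a calcium-dependent adhesion protein that joins neighbouring cells, and at synapses it holds the presynaptic and postsynaptic membranes together. Its intracellular tail binds catenins, which anchor it to actin. It is made as a precursor that proprotein convertases cleave before it becomes adhesive, and the substitution lies near that cleavage site. The PFC is the part of the frontal cortex that serves attention and the control of behaviour, and it receives dopamine axons from the ventral midbrain.

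Defining markers of cortex were present in all 8 libraries. *Slc17a7*, the vesicular glutamate transporter of cortical neurons, had 14914, 13397, 17854 and 15365 in Mutant and 15902, 14908, 14606 and 14619 in WT libraries, and *Tbr1*, a transcription factor of deep-layer projection neurons, 1204, 1091, 1577 and 1338 in Mutant and 1479, 1368, 1566 and 1360.1 in WT libraries. The dopamine transporter *Slc6a3* stayed at or below 6.72 in every PFC library. *Foxa1*, a factor of midbrain dopamine neurons, was listed at 0 in all 8 and was named after its values were seen. It was the only such gene among 13 midbrain dopamine markers. These summed to 184 to 217 in Mutant and 189 to 274 in WT libraries, beside 1684 to 2820 in the vMB. Normalized values, which by the methods are counts per gene scaled with DESeq2, summed to 9.76 to 10.03 M in Mutant and 9.75 to 9.92 M in WT libraries. The depth estimated from the smallest steps of the values was about 7.74 to 9.58 M reads in Mutant and 8.41 to 8.91 M reads in WT libraries.

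Some PFC libraries carried transcripts of other brain regions or of white matter. *Gabra6*, a GABA receptor subunit of cerebellar granule cells, had 136, 29.7, 0 and 1.53 in Mutant 1 to 4 and 1.51, 0, 0 and 0 in WT 1 to 4. *Cbln3*, a secreted protein of the same cells, followed with 114, 39.4, 4.50 and 7.32 in Mutant and 3.10, 6.32, 3.78 and 9.997 in WT libraries. Mutant 1 also held the hypothalamic hormones vasopressin and oxytocin, with *Avp* at 104, 1.03, 2.20 and 2.24 in Mutant and 4.43, 7.91, 0 and 0 in WT libraries and *Oxt* at 69.9, 2.05, 3.31 and 0 in Mutant and 6.65, 6.78, 1.16 and 0 in WT libraries. These regional genes were picked after their values were seen, and they are high in Mutant 1 and, for the cerebellar ones, in Mutant 2, while Mutant 3 and Mutant 4 lay close to WT. Of the 10 genes on a cerebellar list made in the same way 9 were on average higher in Mutant, with a median log2 fold change of 1.59 that was 0.02 without Mutant 1 and Mutant 2. The summed markers of oligodendrocytes and myelin reached 96035 in Mutant 2 and 73742 in WT 3, against 29177 to 42872 in the other Mutant and 25400 to 34138 in the other WT libraries. Striatal markers summed to 7312 in Mutant 2, and to 3296 to 3779 in the other Mutant and 3114 to 4258 in WT libraries. The part of these transcripts in the genotype differences below was not tested, and the count of DEGs and most list medians are given also without Mutant 1 and Mutant 2. Counts of genes by sign or without overlap are given over all 8 libraries.

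**Figure D1:**
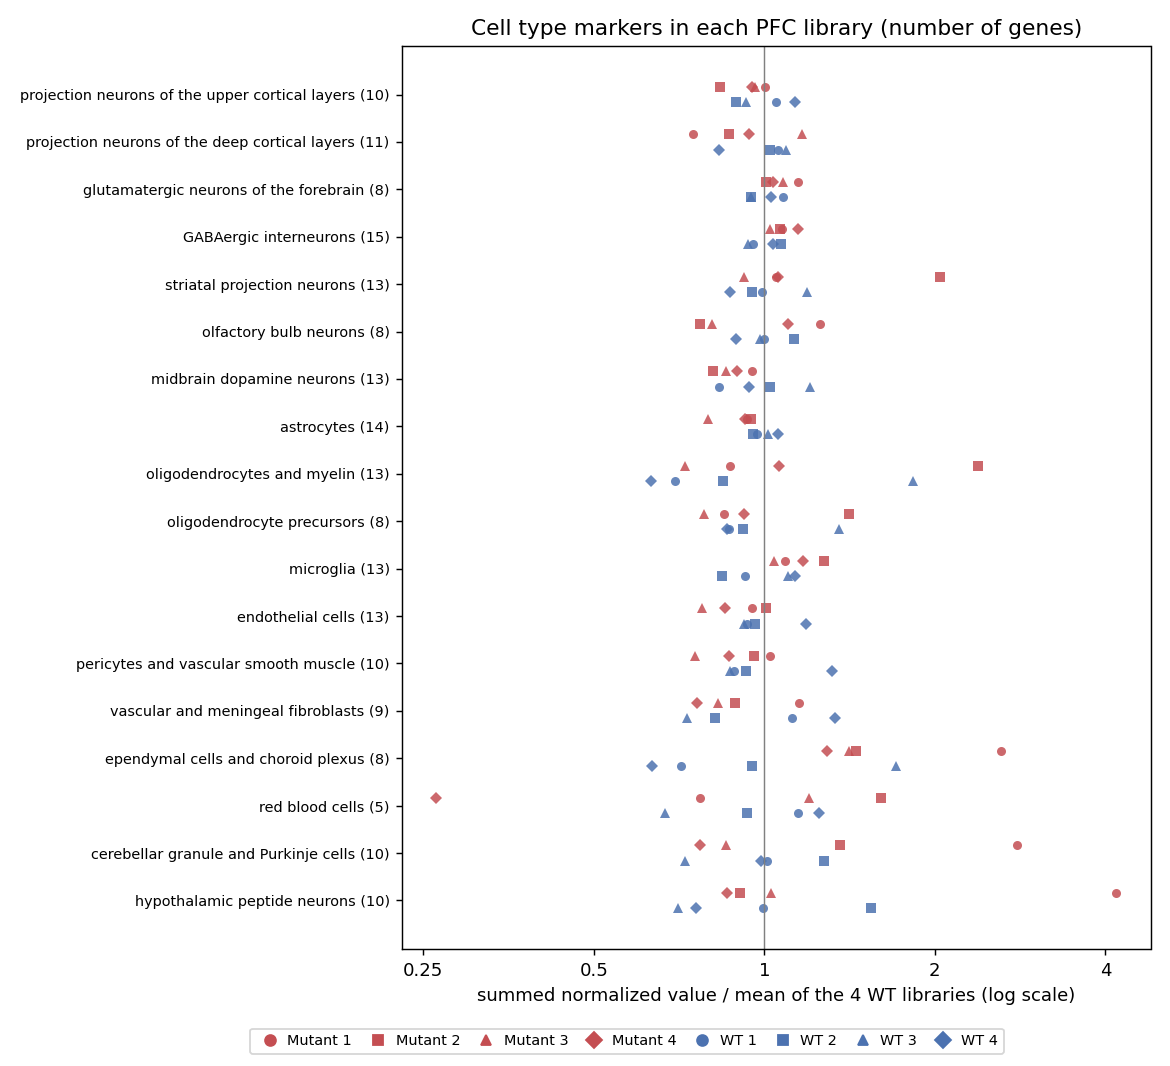
Summed normalized value of each cell type marker list in each PFC library, divided by the mean of the 4 WT libraries (log scale), with Mutant libraries in red above WT libraries in blue. Mutant 1 stands far to the right for cerebellar and hypothalamic genes, Mutant 2 for striatal and myelin genes, and WT 3 for myelin genes.

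*Cdh2* itself was lower in every Mutant than in every WT library, though it did not pass the threshold across all genes. Its normalized value was 522, 779.6, 663 and 577 in Mutant and 1103, 1165, 1023 and 923 in WT libraries. The Mutant mean was 60.3% of the WT mean, and the groups did not overlap. limma gave a log2 fold change of −0.74 (standard error 0.18, adjusted p = 0.0745). A two-sided exact permutation test over the 70 ways to choose 4 of 8 libraries gave p = 0.0286, the smallest it can give. Over all alternatives tried the log2 fold change stayed between −0.86 and −0.64, with adjusted p from 0.0506 to 0.260. Since the knock-in changes 1 amino acid and was not made to remove the transcript, the level of *Cdh2* does not by itself check the genotype labels.

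Across the PFC, 21 genes were differentially expressed (DEGs, called at a limma adjusted p up to 0.05 with a minimum 1.3-fold change), which is 0.142% of the genes tested. Of these, 7 were higher (0.0473%) and 14 lower (0.0945%) in Mutant. In each of the 21 genes all 4 Mutant libraries lay on the same side of all 4 WT libraries. Over all genes tested 8.02% did so, 4.23% wholly above and 3.79% wholly below. The 21 were chosen by the difference between these same libraries, so their separation restates the call and is no further support for it. An unadjusted p under 0.05 was reached by 2532 genes (17.1%), 1189 higher (8.03%) and 1343 lower (9.07%), and the median log2 fold change of all genes tested was −0.01. The 21 adjusted p-values lay between 0.0386 and 0.0477, close under the threshold, and the calls rest on few libraries. The fit takes its estimate of the spread from all 16 libraries, vMB included. With only the 8 PFC libraries in the fit 0 genes were DEGs (lowest adjusted p = 0.133, 2071 genes at an unadjusted p under 0.05), and likewise 0 without the mean-variance trend (2427). No gene was a DEG without Mutant 1, without Mutant 2, without WT 1 or without WT 4, with 2101, 2091, 2119 and 2172 genes at an unadjusted p under 0.05. There were 3 without WT 3 (*Nktr*, *Gm6851* and *Gm14387*, none of the 21), and 260 and 133 without Mutant 3 and without WT 2. When both Mutant 1 and Mutant 2 were left out 0 genes passed (1631 at an unadjusted p under 0.05), although all 21 kept their direction, and without Mutant 2 and WT 3 there was 1, *Gm14387*. These 2 unnamed gene models are named after their values were seen.

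**Figure D2:**
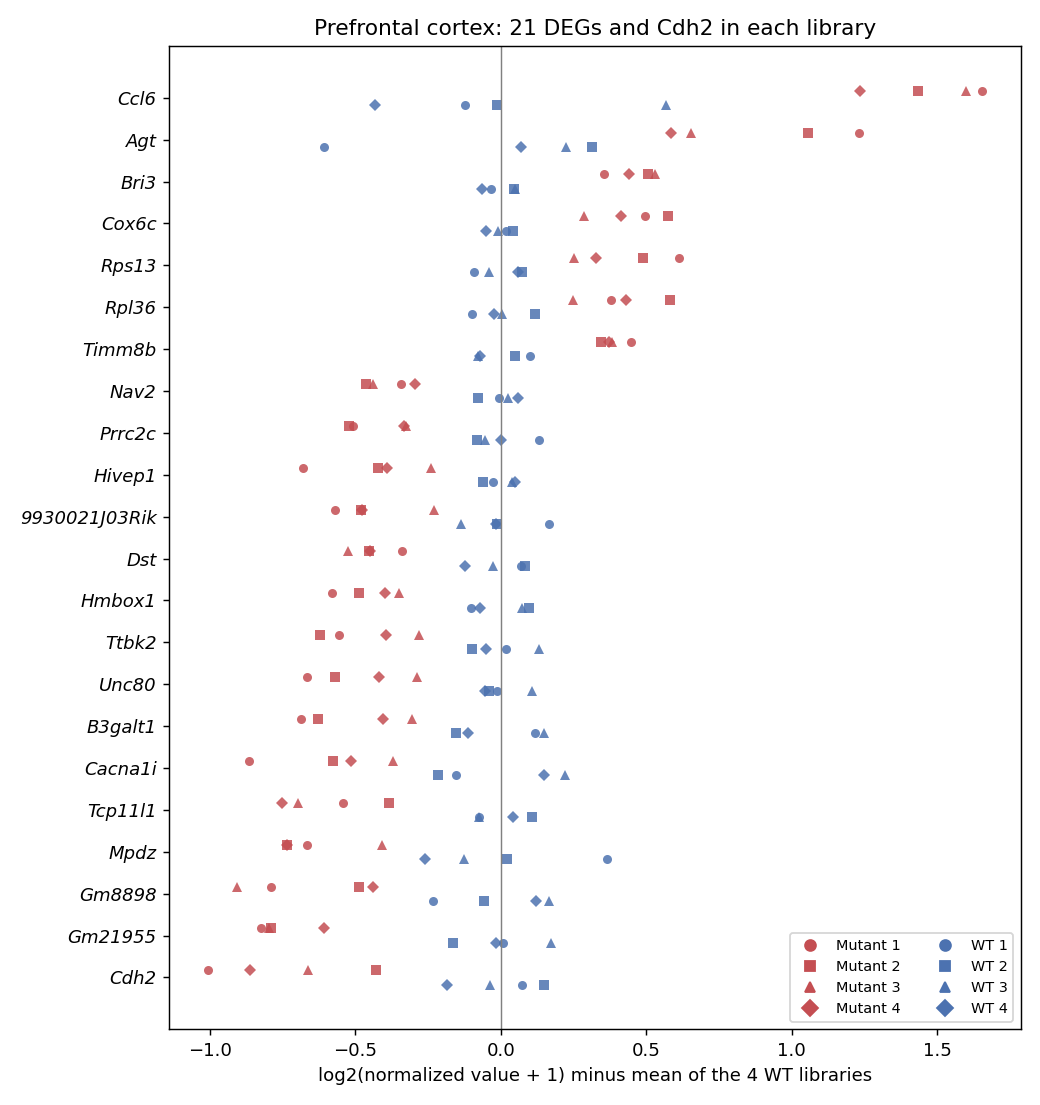
Values of the 21 DEGs and of *Cdh2* in each PFC library, as log2(normalized value + 1) minus the mean of the 4 WT libraries, with Mutant in red above WT in blue and a symbol for each replicate number. In all 22 genes the 4 Mutant points are separate from the 4 WT points, and the largest shift is that of *Ccl6*.

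Among the genes that rose, *Ccl6* and *Agt* showed the largest changes, at low expression levels. *Ccl6*, a chemokine of myeloid cells, had 26.3, 22.5, 25.3 and 19.4 in Mutant and 6.99, 7.61, 11.9 and 5.44 in WT libraries. The lowest Mutant value, 19.4, was above the highest WT value, 11.9. Its log2 fold change was 1.48 (standard error 0.29, adjusted p = 0.0477). *Agt* encodes angiotensinogen, the precursor of the angiotensin peptides, which in the brain is made mainly by astrocytes (chromosome 8 of GRCm38, 124556534 to 124569706, minus strand). It had 77.7, 68.7, 51.8 and 49.3 in Mutant and 21.04, 40.7, 38.2 and 34.2 in WT libraries. Mutant 1 and Mutant 2, the libraries with cerebellar transcripts, were highest, and Mutant 3 and Mutant 4 also exceeded the highest WT library. The log2 fold change was 0.88 (standard error 0.17, adjusted p = 0.0477), and 0.62 without Mutant 1 and Mutant 2 (adjusted p = 0.279). *Agt* is far more abundant in the vMB, with a mean of 1761 in Mutant and 1565 in WT libraries.

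The remaining genes that rose belong to mitochondria, ribosomes and membranes. *Cox6c*, a small subunit of cytochrome c oxidase, had 1855, 1959, 1604 and 1754 in Mutant and 1332, 1354, 1308 and 1271 in WT libraries, and its log2 fold change was 0.44 (standard error 0.08, adjusted p = 0.0386). *Timm8b* is a small chaperone of protein import into mitochondria. It had 501, 466, 478 and 475 in Mutant and 393, 379.9, 348 and 349 in WT libraries, without overlap, and a log2 fold change of 0.39 (standard error 0.07, adjusted p = 0.0457). *Rps13*, a protein of the small ribosomal subunit, was at 997, 915, 777 and 819 in Mutant and 611, 686, 634 and 679 in WT libraries (log2 fold change 0.42, adjusted p = 0.0477), and *Rpl36*, of the large subunit, at 946, 1089, 865 and 981 in Mutant and 680.0, 789, 730.0 and 716 in WT libraries (log2 fold change 0.41, adjusted p = 0.0477). In both ribosomal genes Mutant 3 was the lowest Mutant library. *Bri3*, which encodes a small membrane protein, had 464, 515, 524 and 492 in Mutant and 354, 374, 375 and 347 in WT libraries and a log2 fold change of 0.46 (standard error 0.08, adjusted p = 0.0386). Ribosomal protein genes have near-identical processed copies elsewhere in the genome, and the sources do not state how reads that match several copies were counted, so the levels of *Rps13* and *Rpl36* are uncertain in that respect. *Cox6c* and *Timm8b* overlap other tested genes on the opposite strand, and whether strand was used in counting is not stated.

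The genes that fell include several channels and synaptic genes of neurons. *Unc80* encodes an auxiliary subunit of the NALCN sodium leak channel, which sets the resting potential of neurons (chromosome 1 of GRCm38, 66468367 to 66699148, plus strand). It had 2065, 2206, 2678 and 2448 in Mutant and 3244, 3186, 3524 and 3152 in WT libraries, with no Mutant library above 2678 and no WT library below 3152. The log2 fold change was −0.49 (standard error 0.09, adjusted p = 0.0386). The channel pore *Nalcn* was at 699.5, 565, 785 and 699 in Mutant and 829.6, 666, 814 and 745 in WT libraries, with overlapping groups (log2 fold change −0.16, adjusted p = 0.426), or 0.023 with the length trend removed. *Cacna1i*, a T-type calcium channel of low threshold, had 657, 802, 925 and 838 in Mutant and 1076, 1031, 1396 and 1326 in WT libraries (chromosome 15, 80287238 to 80398279). Its Mutant values stayed below the WT ones, and its log2 fold change was −0.58 (standard error 0.11, adjusted p = 0.0477). *Mpdz*, a scaffold with many PDZ domains that binds synaptic and junction proteins, had 434, 414, 519.6 and 414 in Mutant and 887, 699.8, 632 and 575 in WT libraries and a log2 fold change of −0.64 (standard error 0.12, adjusted p = 0.0477). WT 1 was the highest library in *Mpdz*, and the lowest WT value exceeded the highest Mutant value. *B3galt1*, a galactosyltransferase that is strong in brain, was at 254, 264, 331 and 309 in Mutant and 444, 367, 454 and 378 in WT libraries (log2 fold change −0.51, adjusted p = 0.0477).

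Cytoskeletal and signalling genes also fell. *Dst* encodes dystonin, a spectraplakin that links actin, microtubules and intermediate filaments, and had 3149.6, 2911, 2769 and 2916 in Mutant and 4179.8, 4219, 3914 and 3660.4 in WT libraries (log2 fold change −0.44, adjusted p = 0.0386). *Nav2*, a neuron navigator that binds microtubules in growing neurites, had 633, 581, 592 and 654 in Mutant and 799, 761, 816 and 835 in WT libraries (log2 fold change −0.38, adjusted p = 0.0386). These 2 genes have the longest summed exons of the 20 DEGs with a length, 41155 bases for *Dst* and 32228 bases for *Nav2*. *Ttbk2*, a tau tubulin kinase needed to build cilia, was at 541, 516, 654 and 605 in Mutant and 806, 742, 871 and 767 in WT libraries (log2 fold change −0.46, adjusted p = 0.0477), and *Tcp11l1* at 99.3, 111, 89.1 and 85.6 in Mutant and 137, 156, 138 and 149 in WT libraries (log2 fold change −0.59, adjusted p = 0.0477). Both overlap other tested genes, *Ttbk2* on the same strand.

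The rest were 3 genes of transcription or RNA and 3 gene models. *Hivep1*, a zinc finger factor that binds enhancers, had 635, 759, 862 and 775 in Mutant and 999, 975, 1044 and 1050.5 in WT libraries (log2 fold change −0.43, adjusted p = 0.0477). The homeobox gene *Hmbox1* was at 357, 381, 419 and 405 in Mutant and 498, 572, 563 and 509 in WT libraries (log2 fold change −0.45, adjusted p = 0.0386). *Prrc2c*, a proline-rich protein of stress granules, had 1194, 1182, 1356 and 1349.8 in Mutant and 1863, 1606, 1638 and 1699 in WT libraries (log2 fold change −0.42, adjusted p = 0.0386). In each of these 3 genes every Mutant value lay below every WT value, with Mutant 3 the highest Mutant library. The gene models *9930021J03Rik*, *Gm8898* and *Gm21955* also fell, with log2 fold changes of −0.44, −0.66 and −0.75. *9930021J03Rik* had 419, 445, 531 and 446 in Mutant and 697, 616, 566 and 615 in WT libraries, and *Gm8898* 61.8, 76.4, 56.9 and 79.03 in Mutant and 91.5, 103, 121 and 117 in WT libraries, both without overlap. *Gm21955* had the largest change among the genes that fell, with 229, 235, 234 and 267 in Mutant and 409, 363, 459 and 402 in WT libraries, and it was not found in the GENCODE annotation used here.

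A further 7 genes had an adjusted p of at most 0.05 with a change under the fold minimum. Those higher in Mutant numbered 11 with the DEGs (0.0743%) and those lower 17 (0.115%). The 4 that rose included *Rpl7a* of the ribosome, with 1986, 2127, 1749 and 1899 in Mutant and 1539, 1614, 1571 and 1480.0 in WT libraries (log2 fold change 0.32, adjusted p = 0.0477), the mitochondrial ribosomal gene *Mrpl48* (log2 fold change 0.37, adjusted p = 0.0477) and the cytochrome c oxidase subunit *Cox4i1* (log2 fold change 0.31, adjusted p = 0.0477). The 3 that fell included *Chd9*, a chromatin remodeler, with 502, 502, 508 and 540.0 in Mutant and 674, 646, 645 and 687 in WT libraries (log2 fold change −0.37, adjusted p = 0.0386). *BC031181* (0.34), *Nktr* (−0.36) and *Usp31* (−0.33) complete the 7.

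The direction of change moved with the exon length of the gene. Of the 20 DEGs with an annotated length, those that rose had 383 to 3567 bases of summed exons and those that fell 2988 to 41155 bases, where the median over all genes tested is 4418. In the shortest of 5 classes of genes (87 to 2428 bases) 11.9% lay wholly above WT in Mutant and 0.750% wholly below, while in the longest class (7632 to 123179 bases) 0.614% lay above and 10.9% below. The median log2 fold change was 0.14, 0.05, −0.01, −0.06 and −0.13 through the classes from short to long, and 0.12, 0.05, 0.00, −0.04 and −0.10 without Mutant 1 and Mutant 2. The slope of each library on exon length, after each gene was centred on its PFC mean, was −0.0533, −0.0735, −0.0138 and −0.0281 log2 units per doubling of length in Mutant 1 to 4, and 0.0443, 0.0133, 0.0562 and 0.0549 in WT 1 to 4. The slopes did not overlap between the groups, with −0.0422 ± 0.0265 in Mutant and 0.0422 ± 0.0200 in WT (SD, n = 4 each; exact permutation p = 0.0286, two-sided and the smallest possible). Among the 1833 tested genes with 1 annotated transcript the slopes overlapped, at −0.0502, −0.0553, 0.00111 and −0.0325 in Mutant and 0.0319, −0.0167, 0.0691 and 0.0525 in WT, and the difference was −0.0684 (exact permutation p = 0.0571, n = 4 each). With the trend of each library on length removed, 0 genes were DEGs by limma (1648 of 14659 at an unadjusted p under 0.05). All 20 DEGs kept their direction there and 17 still showed no overlap (3.00% of all genes wholly above and 2.18% wholly below there). Their log2 fold changes were 32.1% to 108% of those without the removal (median 74.0%). Since these genes were chosen by their difference in the same libraries, the 17 cannot be set against the shares over all genes. Whether the length trend arises in the tissue or in the handling of RNA was not tested.

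**Figure D3:**
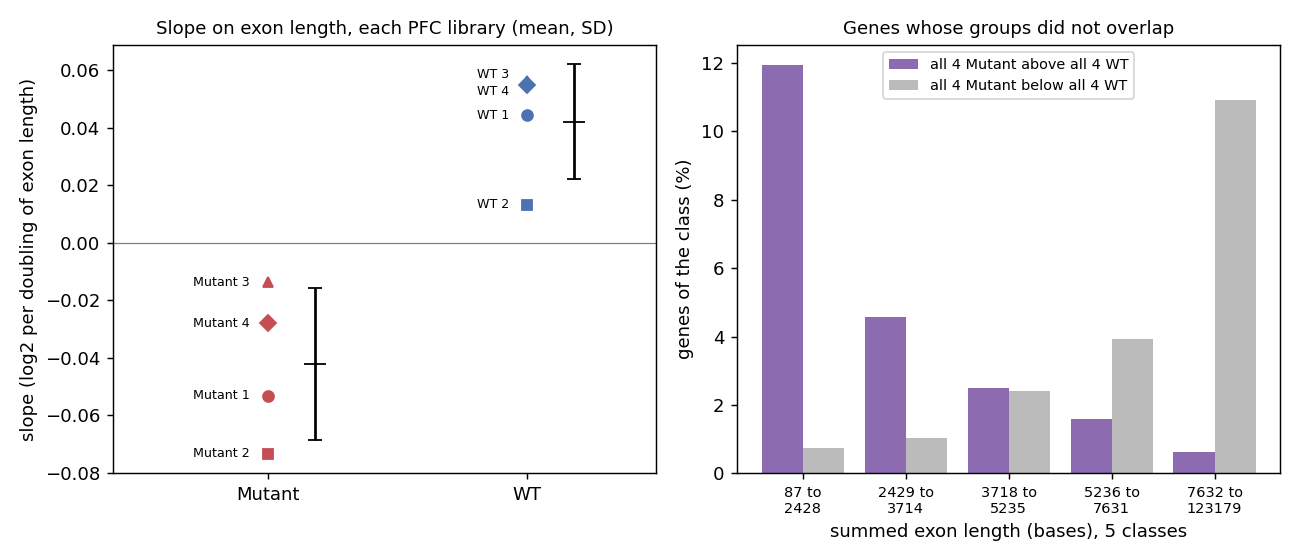
Left, slope of each PFC library on log2 summed exon length (log2 units per doubling) with the mean and SD of each group, Mutant left of WT. Right, percentage of genes in 5 classes of exon length whose 4 Mutant values all lie above or all lie below the 4 WT values. Every Mutant slope is below every WT slope, and the genes that lie wholly above fall off with length as those wholly below grow.

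Genes of small, abundant protein complexes were on average higher in Mutant. Over all genes tested the mean log2 value was higher in Mutant in 48.4% and lower in 51.5%, and 0.142% were DEGs. At that share a list of the sizes used here would hold few DEGs or none. The absence of a DEG therefore says little about the members of a list. Of 81 tested genes of the cytosolic ribosome 80 had a higher mean, and 36 lay wholly above WT (4.23% over all genes), with a median log2 fold change of 0.33, beside −0.01 for all genes tested. *Rps13* and *Rpl36* were DEGs. The median was 0.20 with the length trend removed and 0.23 without Mutant 1 and Mutant 2. The nuclear-encoded subunits of respiratory complex I, which pass electrons from NADH to ubiquinone, had a higher mean in all 36 tested genes and lay wholly above WT in 22 of them, with none a DEG. Their median was 0.22, or 0.10 with the length trend removed and 0.21 without Mutant 1 and Mutant 2. *Ndufb9*, a subunit of its membrane arm, had 1326, 1372, 1130.5 and 1285 in Mutant and 992, 1042, 974 and 983 in WT libraries (log2 fold change 0.35, adjusted p = 0.0566). Subunits of complexes II to V had a higher mean in all 42 genes and lay wholly above WT in 30, with a median of 0.24 (0.11 with the length trend removed, 0.20 without Mutant 1 and Mutant 2) and 1 DEG, *Cox6c*. With the length trend removed 18 of the ribosomal, 9 of the complex I and 18 of the complex II to V genes lay wholly above WT. *Atp5k*, a small subunit of ATP synthase, was at 568, 573, 559 and 559 in Mutant and 456, 457, 377 and 379 in WT libraries (log2 fold change 0.44, adjusted p = 0.0537).

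Other mitochondrial and protein-handling lists showed the same sign. In the mitochondrial ribosome 71 of 76 genes had a higher mean, 14 lay wholly above WT, and the median was 0.17. With the length trend removed 5 lay wholly above and the median was 0.086, and it was 0.15 without Mutant 1 and Mutant 2. In mitochondrial protein import 25 of 27 genes had a higher mean and 11 lay wholly above (7 with the length trend removed). The median there was 0.22 (0.099 with the length trend removed, 0.20 without Mutant 1 and Mutant 2). *Timm8b* was the DEG of that list, and *Chchd4*, which oxidizes small imported proteins in the intermembrane space, had 282, 274, 251 and 258 in Mutant and 230.4, 197, 188 and 192 in WT libraries (log2 fold change 0.40, adjusted p = 0.0767). The 13 mRNAs encoded by mitochondrial DNA itself had a median of 0.12, which was 0.00 with quantile normalization, −0.07 with the length trend removed and 0.02 without Mutant 1 and Mutant 2, and 0 of them lay wholly above WT. Subunits of the proteasome had a median of 0.13 (0.089 with the length trend removed, 0.18 without Mutant 1 and Mutant 2). Of these 33 genes 11 lay wholly above WT, or 5 with the length trend removed. The Sm and LSm proteins of splicing had a median of 0.24 (0.15 with the length trend removed, 0.20 without Mutant 1 and Mutant 2). Of these 22 genes 9 lay wholly above, or 7 with the length trend removed. *Psmb6*, a catalytic subunit of the proteasome, was at 609.6, 632, 644 and 658 in Mutant and 522, 546, 531 and 534 in WT libraries (log2 fold change 0.25, adjusted p = 0.0619), and *Snrpe*, a core protein of spliceosomal particles, at 120.4, 136, 100.5 and 116 in Mutant and 79.02, 73.3, 87.7 and 88.96 in WT libraries (log2 fold change 0.51, adjusted p = 0.0763). No gene of these lists had an adjusted p of at most 0.05 in the other direction, where 0.115% of all genes tested had one. At that share few or none would be found in these lists.

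**Figure D4:**
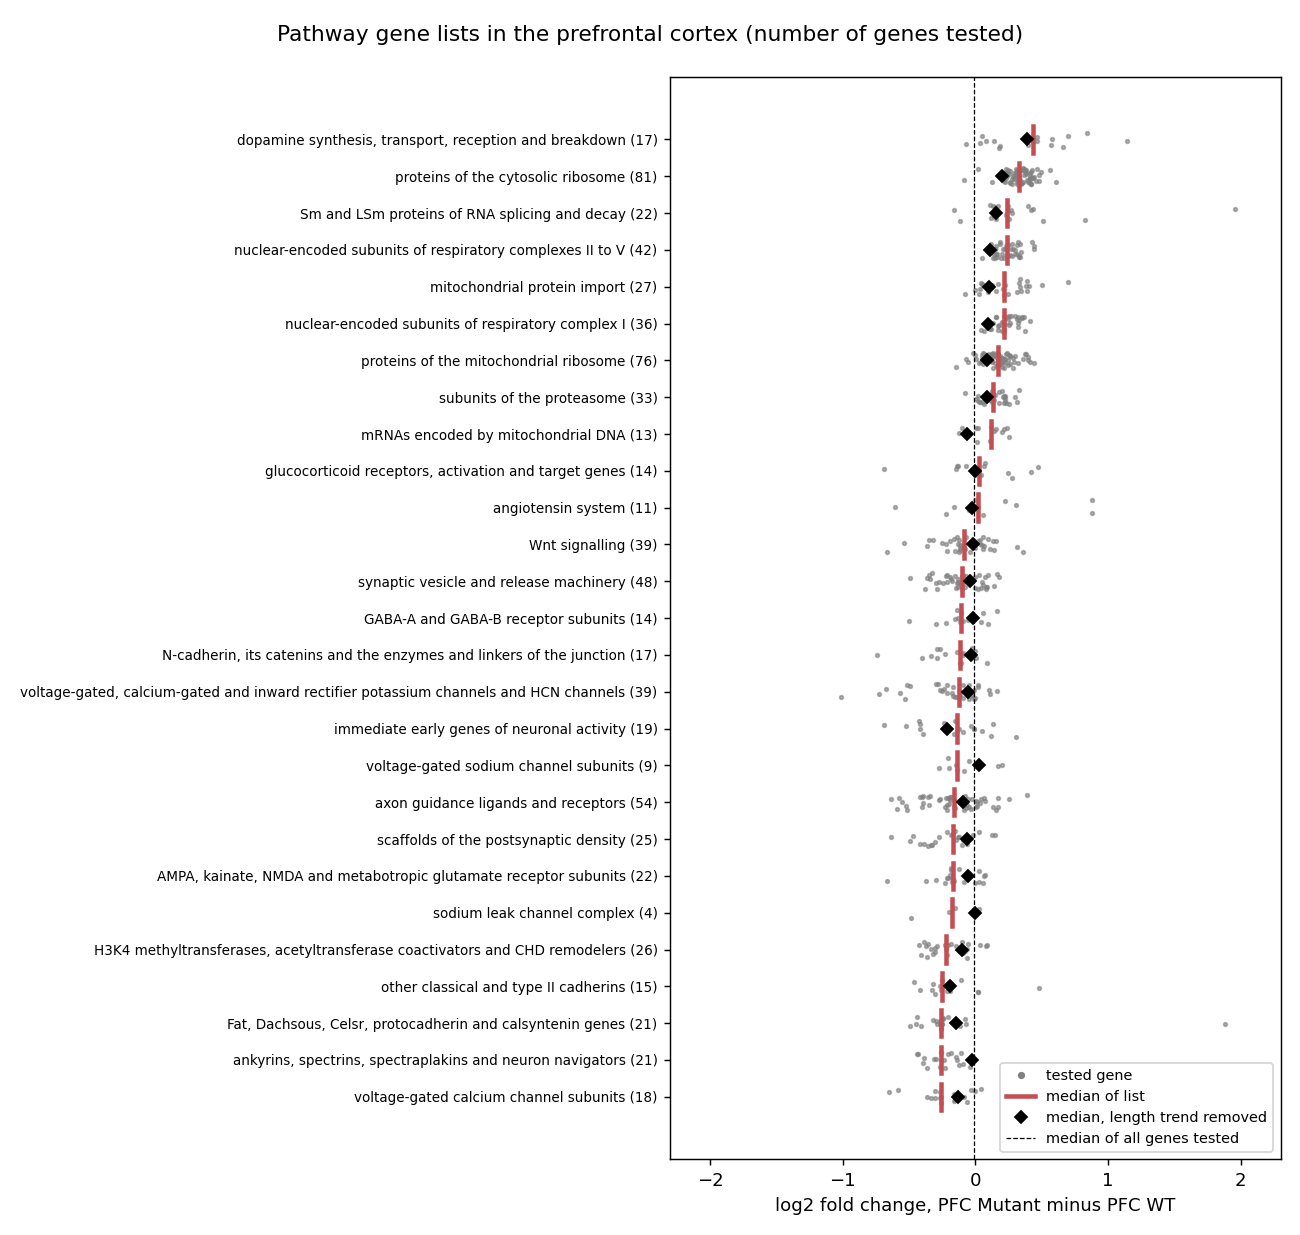
Log2 fold change, PFC Mutant minus PFC WT, of every tested gene in 27 pathway lists (grey), with the median of each list (red bar), the median with the length trend removed (black diamond) and the median of all genes tested (dashed line, −0.01). Ribosomal and respiratory lists lie to the right, channel, cadherin and cytoskeletal lists to the left, and the diamonds lie nearer to the dashed line for most lists.

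Cytoskeletal linkers, channels and synaptic genes had lower means in Mutant. All 21 tested ankyrins, spectrins, spectraplakins, navigators and large microtubule-binding proteins had a lower mean, 9 lay wholly below WT (3.79% over all genes) and 2, *Dst* and *Nav2*, were DEGs. The median of −0.26 was −0.03 with the length trend removed, when 1 lay wholly below, and −0.16 without Mutant 1 and Mutant 2. *Map2*, the microtubule-associated protein of dendrites, had 8444, 7818, 9298 and 10467 in Mutant and 11800, 11397, 11966 and 11050 in WT libraries (log2 fold change −0.37, adjusted p = 0.0619). Of 18 calcium channel subunits 17 had a lower mean, with a median of −0.26, and −0.13 with the length trend removed or −0.11 without Mutant 1 and Mutant 2. *Cacna1i* was the DEG, and *Cacna1e*, an R-type channel, had 1181, 899, 1558 and 1231 in Mutant and 1950.4, 1972, 1892 and 1692 in WT libraries (log2 fold change −0.65, adjusted p = 0.0641). Of 39 potassium and HCN channels 33 had a lower mean and 3 lay wholly below WT, with a median of −0.12 and no DEG. With the length trend removed the median was −0.056 and 0 lay wholly below, and without Mutant 1 and Mutant 2 it was −0.075. *Kcnj6*, a G-protein-gated inward rectifier, was at 95.5, 101, 184 and 108 in Mutant and 207, 161, 205 and 212 in WT libraries (log2 fold change −0.72, adjusted p = 0.0862), where Mutant 3 reached the WT range. Sodium channels had a median of −0.14 that was 0.02 with the length trend removed and −0.03 without Mutant 1 and Mutant 2.

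At the synapse, 22 of 25 scaffolds of the postsynaptic density had a lower mean, and 5 lay wholly below WT (3 with the length trend removed). The median was −0.17 (−0.07 with the length trend removed, −0.11 without Mutant 1 and Mutant 2). *Mpdz* was the DEG of the list. *Shank1*, a master scaffold of excitatory synapses, had 4092, 3591, 5096 and 5169.8 in Mutant and 6065, 6242, 5865 and 6865 in WT libraries (log2 fold change −0.49, adjusted p = 0.0537). Glutamate receptors had a median of −0.17 with no DEG, or −0.053 with the length trend removed and −0.078 without Mutant 1 and Mutant 2. GABA receptors had a median of −0.11 with no DEG, or −0.020 with the length trend removed and −7.5e-05 without Mutant 1 and Mutant 2. In the release machinery 35 of 48 genes had a lower mean, with a median of −0.10, which was −0.040 with the length trend removed and −0.00072 without Mutant 1 and Mutant 2. *Unc13a*, which primes vesicles for fusion, had 4036, 4230.4, 4333 and 4224 in Mutant and 5047, 5225, 4951 and 5394 in WT libraries (log2 fold change −0.29, adjusted p = 0.0916), and *Synj1*, which uncoats vesicles after endocytosis, 2185, 2031, 2707 and 2519 in Mutant and 3384, 2935, 2786 and 2981 in WT libraries (log2 fold change −0.36, adjusted p = 0.0763). Axon guidance genes had a lower mean in 40 of 54, a median of −0.16 (−0.096 with the length trend removed, −0.12 without Mutant 1 and Mutant 2) and no DEG. *Plxna4*, a semaphorin receptor, was at 387, 326, 585 and 431 in Mutant and 671, 574, 609 and 679 in WT libraries (log2 fold change −0.58, adjusted p = 0.0763).

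Among the partners of N-cadherin none passed, where 0.142% of all genes tested were DEGs. Of 17 genes of the cadherin-catenin junction and its processing 15 had a lower mean, with a median of −0.11, or −0.04 with the length trend removed and −0.12 without Mutant 1 and Mutant 2. *Ctnnd1*, which encodes p120-catenin and keeps cadherins at the membrane, had 714, 855, 679.8 and 805 in Mutant and 861, 830.1, 1027 and 946 in WT libraries (log2 fold change −0.26, adjusted p = 0.199), and the groups overlapped. *Vcl*, which ties catenins to actin, was at 189, 231, 216 and 267 in Mutant and 320.1, 288, 261 and 319.5 in WT libraries (log2 fold change −0.40, adjusted p = 0.105). Of 21 Fat, Dachsous, Celsr, protocadherin and calsyntenin genes 20 had a lower mean and 5 lay wholly below WT. The median was −0.26, or −0.17 without Mutant 1 and Mutant 2. With the length trend removed it was −0.15 and 1 lay wholly below. *Fat1*, an atypical cadherin of planar polarity, had 355, 291, 316 and 320.4 in Mutant and 419, 427, 436 and 421 in WT libraries (log2 fold change −0.41, adjusted p = 0.0641), and the delta-protocadherin *Pcdh17* had 329, 400.1, 478 and 428 in Mutant and 534, 611, 586 and 488 in WT libraries (log2 fold change −0.45, adjusted p = 0.0751). The exception was *Fat2*, a cadherin of cerebellar granule cells, at 56.6, 29.8, 2.21 and 0 in Mutant and 3.33, 1.13, 2.32 and 0 in WT libraries, high in the 2 libraries with other cerebellar transcripts and named after its values were seen. The other classical and type II cadherins had a median of −0.25, which was −0.07 without Mutant 1 and Mutant 2.

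Of 26 H3K4 methyltransferases, acetyltransferase coactivators and remodelers 23 had a lower mean and 10 lay wholly below WT. The median was −0.22, or −0.19 without Mutant 1 and Mutant 2. With the length trend removed it was −0.10 and 2 lay wholly below. None of the 26 was a DEG, and *Chd9* passed below the fold minimum. *Kmt2d*, an enhancer methyltransferase, had 1194, 903, 946 and 1024 in Mutant and 1323, 1514, 1239 and 1371 in WT libraries (log2 fold change −0.43, adjusted p = 0.0577). In the 39 Wnt genes the median was −0.09 (−0.019 with the length trend removed, −0.037 without Mutant 1 and Mutant 2), and *Gsk3b*, the kinase that marks beta-catenin for decay, was at 1001, 1056, 1211 and 1272 in Mutant and 1535, 1286, 1444 and 1502 in WT libraries (log2 fold change −0.35, adjusted p = 0.0826). Immediate early genes of neuronal activity had a median of −0.14, which was 0.03 without Mutant 1 and Mutant 2, glucocorticoid genes of 0.03, and the angiotensin system of 0.02, with *Agt* the DEG among 11 tested genes.

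Genes of dopamine synthesis, transport, reception and breakdown had no DEG (0.142% over all genes). Of these 17 genes 16 had a higher mean, with a median of 0.44, or 0.25 without Mutant 1 and Mutant 2. *Ddc*, the enzyme that turns DOPA into dopamine, had 59.8, 67.5, 45.3 and 44.8 in Mutant and 37.9, 31.9, 39.1 and 23.95 in WT libraries. All Mutant values were above all WT values, and the log2 fold change was 0.70 (standard error 0.18, adjusted p = 0.0826), or 0.45 without Mutant 1 and Mutant 2 (adjusted p = 0.436). With 1 library left out its adjusted p lay between 0.0463, without Mutant 3, and 0.187. *Th*, the rate-limiting enzyme before it, was at 43.5, 19.6, 20.9 and 30.8 in Mutant and 14.99, 23.04, 18.5 and 22.4 in WT libraries, with overlapping groups (log2 fold change 0.47, adjusted p = 0.321). The D2 receptor *Drd2* had 11.7, 83.1, 11.02 and 25.8 in Mutant and 8.86, 10.2, 27.8 and 3.54 in WT libraries, its high value being that of Mutant 2, the library with the high striatal sum.

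Marker lists of the cell types in the tissue held 1 DEG, *Agt*, and in bulk samples fewer cells of a type and less RNA per cell cannot be told apart. Beside the rise of *Agt*, 11 of 14 astrocyte markers had a lower mean in Mutant, *Agt* being itself on that list. The summed markers were at 48829 to 58028 in Mutant and 58568 to 64975 in WT libraries, without overlap. Their median log2 fold change was −0.12, and 2 lay wholly below WT. With the length trend removed it was −0.05, 9 had a lower mean and 0 lay wholly below. *Slc1a2*, the glutamate transporter of astrocytes, had 19041, 16162, 15911 and 18043 in Mutant and 21077, 19953, 22011 and 21606 in WT libraries (log2 fold change −0.29, adjusted p = 0.106), and the water channel *Aqp4* 984, 988, 765 and 925 in Mutant and 1146, 1059, 1011 and 1112 in WT libraries (log2 fold change −0.25, adjusted p = 0.141). Beside the rise of *Ccl6*, all 13 microglia markers had a higher mean, with a median of 0.22 and no DEG. Of these markers 0 lay wholly above WT (4.23% over all genes). The median was 0.14 without Mutant 1 and Mutant 2. With the length trend removed it was 0.145, and 12 had a higher mean. The microglia markers summed to 5908 to 7213 in Mutant and 4774 to 6431 in WT libraries, with overlapping groups. *Trem2*, a lipid receptor of microglia, was at 183, 239, 151 and 172 in Mutant and 154, 159.7, 137 and 124 in WT libraries (log2 fold change 0.36, adjusted p = 0.204). Endothelial markers had a lower mean in 12 of 13 genes, or in 9 with the length trend removed. Their median of −0.15 was −0.18 with the length trend removed and −0.35 without Mutant 1 and Mutant 2. With 1 library left out it lay between −0.26 and −0.03, WT 4 having the highest sum (4650.1). *Flt1*, a VEGF receptor, was at 486, 582, 396 and 397 in Mutant and 531, 622, 515 and 746 in WT libraries (log2 fold change −0.38, adjusted p = 0.235). Upper-layer, deep-layer and forebrain glutamatergic neuron lists had medians of −0.08, −0.01 and 0.09, and interneuron markers of 0.06. The part of these cell types in the changes of *Agt* and *Ccl6* was not tested.

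The change in the vMB was set beside that in the PFC for the same genes and lists. The vMB medians were 0.37 for the cytosolic ribosome, 0.35 for complex I and 0.33 for complexes II to V, beside 0.33, 0.22 and 0.24 in the PFC. They were −0.36 for the cytoskeletal linkers and −0.37 for the chromatin genes, beside −0.26 and −0.22. These list shifts were thus not particular to the PFC. The dopamine list had 0.01 in the vMB, beside 0.44 in the PFC. That PFC median was 0.25 without Mutant 1 and Mutant 2, and 0.20 to 0.53 with 1 library left out. Only 1 of its 17 tested genes lay wholly above WT. Its summed values were 6687 in Mutant 2, against 3727 to 4286 in the other Mutant and 3494 to 4538 in WT libraries. Whether this list as a whole differed between the tissues was not tested. Every one of the 21 PFC DEGs had the same sign of change in the vMB, where 67.0% of all genes tested had the same sign in both tissues, and 7 of the 21 (33.3%) were DEGs there, where 3.25% of all genes were. The 7 are *Bri3*, *Cox6c*, *Nav2*, *Prrc2c*, *Hivep1*, *Dst* and *Unc80*, and they make up 1.46% of the 481 vMB DEGs. Both contrasts come from 1 fit and share the estimate of the spread of each gene. A low estimate favours a call in both tissues, so the 33.3% is not a measure of independent replication. The vMB showed the trend on exon length too. Its median log2 fold change was 0.16, 0.06, −0.01, −0.07 and −0.14 through the 5 classes from short to long. The part of this trend in the shared signs and shared DEGs was not tested. Libraries of both tissues may come from the same animals, as the 4 title codes common to both leave possible, and the tissues are not taken as independent replicates. *Unc80* had a vMB log2 fold change of −0.49 beside −0.49 in the PFC, and *Bri3* 0.41 beside 0.46. *Nav2* had a larger change in the vMB, −0.75 beside −0.38, and the difference was 0.36 (PFC minus vMB, standard error 0.09, unadjusted p = 0.00126 and adjusted p = 0.728 from limma). *Ccl6* was at 0.29 in the vMB (adjusted p = 0.621) and *Agt* at 0.16 (adjusted p = 0.650). *Gm8898* was at −0.01 in the vMB, with 129 in both groups there. Of the 21 genes 17 had a larger change in the PFC, which is where they were chosen. At an unadjusted p under 0.05, 8 differed between the tissues (5.83% of all genes). That contrast contains the PFC difference by which the 21 were chosen, so the 8 cannot be set against the share over all genes. After adjustment over all genes limma found 0 genes whose change differed between the tissues (864 at an unadjusted p under 0.05).

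**Figure D5:**
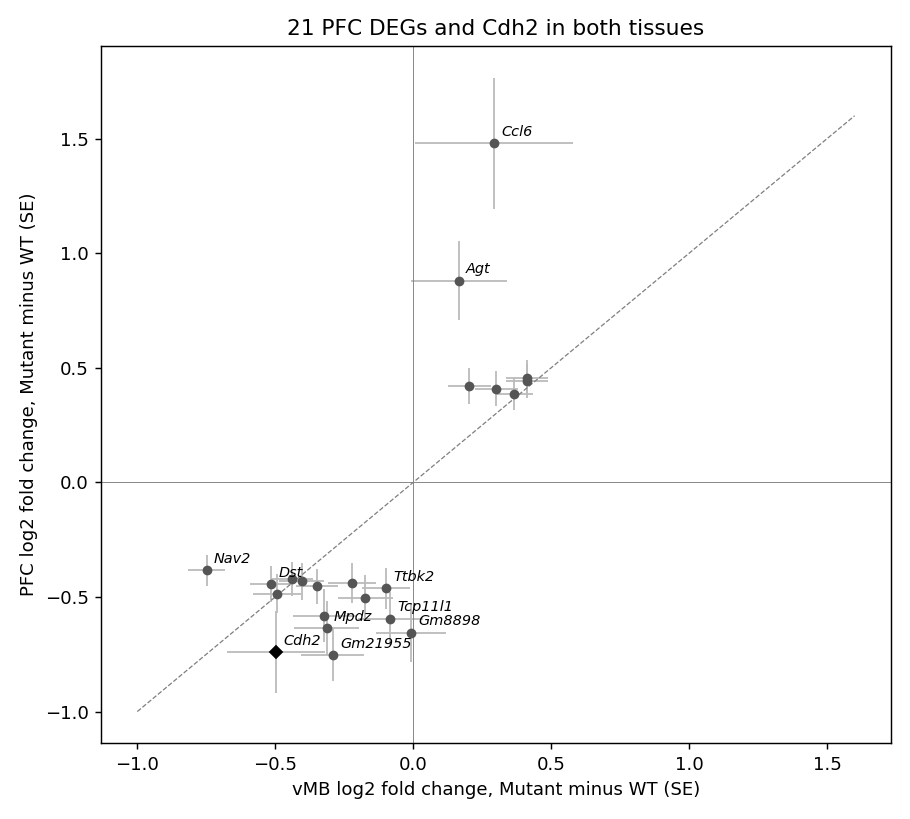
Log2 fold change, Mutant minus WT, in the PFC (vertical) and in the vMB (horizontal) for the 21 PFC DEGs and *Cdh2* (diamond), with standard errors and the line of equal change (dashed). All 22 genes have the same sign in both tissues, *Ccl6* and *Agt* lie far above the line, and *Nav2* has the lowest vMB value.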

How the data were processed

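PolyA RNA-seq libraries of 2 tissues were sequenced as single-end reads of 60 bases. According to the methods, the authors trimmed reads with Cutadapt 1.8.3, aligned them with TopHat 2.0.10, counted them with HTSeq-count 0.6.1p1 and scaled the counts with DESeq2. The methods name a human genome although the gene identifiers are mouse, so the build behind the counts is not known. By the methods, the deposited signal values are counts that the authors normalized with DESeq2. Low values were whole multiples of a step (tolerance 0.05) in 97.2% to 98.0% of cases for genes with 1 transcript and in 40.0% to 42.6% for other genes, so they were not taken as whole reads and no count test was run. Columns of the authors' own comparisons (p-values, fold changes and a pass mark) were not used.

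Genes with a mean of at least 10 over 16 libraries were tested as log2(value + 1) in R 4.3.3 with limma 3.58.1, in 1 fit of 4 groups with a mean-variance trend and Benjamini-Hochberg adjustment. A fold change is therefore on the log2(value + 1) scale, which understates changes of low genes. The code was run on simulated data with independent noise for each gene and no trend on exon length. That run therefore does not show how the calls behave under such a trend, and its pass mark was lowered after a first run. Exact permutation tests used scipy 1.17.1. Names, coordinates and exon lengths came from GENCODE vM21 (GRCm38), with a length for 14659 of the genes tested. Named genes were *Cdh2*, every DEG, and in each list the 3 genes with the smallest unadjusted p and the most abundant markers. The members and lists were chosen with earlier results of these data known, and *Foxa1* and the cerebellar and hypothalamic genes after their values were seen. Alternatives changed the pseudocount (0.5 and 5), filter, scaling, fit, length trend and libraries used. Some withheld genes are not reported here.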

Additional observations from a re-analysis of the deposited data

Results flagged for a closer look

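Among 182 sets of 4 library values tested, 17 had a highest or lowest library that stood apart by Dixon's criterion at 95%. Chance gives about 1 in 20 only for independent sets chosen beforehand. Here the regional genes were picked after their values were seen, and marker sums hold genes that were also tested singly. The count of 17 can therefore not be set against that rate. Mutant 1 stood apart in *Avp* (104), *Oxt* (69.9) and *Pomc* (76.4), the summed hypothalamic genes (502) and the summed ependymal and choroid plexus genes (334), in each as the highest library. Mutant 2 stood apart in summed striatal genes (7312). Mutant 3 stood apart in *Kcnj6* (184) and had the lowest summed astrocyte markers (48829). Mutant 4 stood apart in *Gm21955* (267) and *Chd9* (540.03), in both as the highest Mutant library and still below every WT library.

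WT 4 stood apart in summed endothelial (4650.1) and pericyte and smooth muscle markers (3168), and WT 3 in summed markers of oligodendrocyte precursors (4526). WT 2 stood apart in *Cox4i1* (2923), *Kcnj6* (161, the lowest WT value) and *Cnpy1* (1.32), and WT 1 in *Gabra6* (1.51), the last 2 close to 0 in every WT library. The part of these libraries in the genotype differences was not tested beyond the counts without them.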

How the results depend on the processing

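The 21 DEGs (7 higher and 14 lower in Mutant) depended on the processing. The count was 57 (21 higher, 36 lower) with a mean of at least 50, 3 (2 higher, 1 lower; *Gm21955*, *4930451I11Rik* and *Gm5639*) with no filter, 24 (12 higher, 12 lower) with upper quartile scaling and 6 at a fold of at least 1.5. It was 0 (0 higher, 0 lower) with only the 8 PFC libraries in the fit (2071 at an unadjusted p under 0.05), without the mean-variance trend (2427) and with the length trend removed (1648), also with the replicate block (1688). Leaving out 1 library gave 0 to 260 (0 to 120 higher, 0 to 140 lower). Without Mutant 1 and Mutant 2 it was 0 (0 higher, 0 lower), and without Mutant 2 and WT 3 it was 1 (1 higher, 0 lower), *Gm14387*, which is not among the 21. These joint omissions and the genes with 1 transcript were chosen after seeing the data, and the cause of the differences was not tested. Other pseudocounts, a filter on the PFC, median ratio scaling and quantile normalization gave 20 or 21. Of the 21 genes 20 were called with a mean of at least 50, 18 with upper quartile scaling and 16 with quantile normalization.

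With the replicate block 3 DEGs (0 higher, 3 lower) were left, *Unc80*, *Ttbk2* and *Gm21955*, all among the 21. Same-numbered Mutant and WT libraries did not deviate together (correlations of −0.04 to 0.06), so the libraries share only a number and no pairing was used. Genes whose genotype change differed between tissues numbered 0, and 0 or 1 with 1 library left out, and 1 without Mutant 2 and WT 3, in both cases *Gm14387*. Genes without overlap numbered 1188, and 759 with the length trend removed. The PFC length slope difference of −0.0843 was −0.0940 to −0.0739 with 1 library left out (exact permutation p = 0.0571, the smallest possible), −0.0631 without Mutant 1 and Mutant 2, −0.0692 without Mutant 2 and WT 3, and −0.0684 among genes with 1 transcript. *Fat2* turned to −0.39 without Mutant 1 and Mutant 2, and *Nalcn* to 0.023 with the length trend removed, with or without the replicate block. Depth limits the low genes most, *Ccl6* among them.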
